A study of Mus musculus with 15 samples.

Results

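The 9 genes described here encode components and regulators of the complement system, C1qa, C1qb, C1qc, C1ra, C2, C3, C4b, Cfb and Serping1, out of 35142 genes measured. They were chosen by symbol as a set that contrasts the C1q genes, which microglia express in brain, with C3, C4b and Serping1, which other glia also express. RNA was sequenced from 15 cultures of cerebellar cells of C57BL/6 wild-type mouse pups, dissociated at postnatal days 0 to 4 and plated at 90000 cells per well. At day 14 in vitro, 5 cultures received recombinant murine IL-12p70 for 18 h at 30 ng/ml, the low dose, and 5 at 100 ng/ml, the high dose. A further 5 were left unstimulated. All were kept in Neurobasal Plus medium with B27 Plus, none carried a transgene or deletion, and no sorting of cell types is described. The study asked how IL-12 alters gene expression in primary neuronal cultures, and the comparisons here ask whether complement genes moved with it.

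Complement is a cascade of plasma and tissue proteins that tags cells and debris for removal. C1q, built from the products of C1qa, C1qb and C1qc, recognises a target and activates the proteases C1r and C1s, which cleave C4 and C2 to form an enzyme that cleaves C3. Factor B (Cfb) serves the alternative route to C3 cleavage, and Serping1 encodes C1 inhibitor, which blocks C1r and C1s. In the brain, C1q and C3 are known for tagging synapses that microglia then engulf.

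The C1q genes lie together on the minus strand of chromosome 4 (GRCm39), with C1qb at chr4:136606009-136613511, C1qc at chr4:136616466-136620376 and C1qa at chr4:136623223-136626161, a span of 20153 bases. C4b (chr17:34947354-34962912), Cfb (chr17:35074852-35081559) and C2 (chr17:35081578-35117241) lie on the minus strand of chromosome 17 within 169888 bases, and 18 bases separate Cfb from C2. C3 (chr17:57510964-57535155) lies further along chromosome 17 on the minus strand. C1ra (chr6:124489364-124500402) is on the plus strand of chromosome 6, and Serping1 (chr2:84595705-84620873) on the minus strand of chromosome 2. Of the 9 members, C1qb, C1qc, C1ra, C2, C3, C4b and Cfb overlap an annotated gene on the other strand, and C2 and Cfb both overlap the readthrough gene Gm20547, which limits how surely low counts can be placed.

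The 250 bases before the annotated start are shown for 6 of the members that moved or carry the contrast between C1q and other glial genes. C1qb, which also fell at the low dose and held no match to the motifs below, is not shown. Capitals mark a match, on either strand, to a motif searched for.
C1qa: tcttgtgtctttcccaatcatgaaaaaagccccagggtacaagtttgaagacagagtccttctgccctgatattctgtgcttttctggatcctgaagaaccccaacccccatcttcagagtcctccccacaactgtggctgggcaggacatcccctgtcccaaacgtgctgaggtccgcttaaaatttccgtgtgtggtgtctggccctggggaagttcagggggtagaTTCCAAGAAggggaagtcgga
C1qc: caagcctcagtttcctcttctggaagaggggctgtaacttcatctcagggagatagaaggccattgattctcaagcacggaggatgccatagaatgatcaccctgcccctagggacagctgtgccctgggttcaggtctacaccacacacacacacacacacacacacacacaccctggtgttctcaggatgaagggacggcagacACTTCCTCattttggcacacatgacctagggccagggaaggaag
C1ra: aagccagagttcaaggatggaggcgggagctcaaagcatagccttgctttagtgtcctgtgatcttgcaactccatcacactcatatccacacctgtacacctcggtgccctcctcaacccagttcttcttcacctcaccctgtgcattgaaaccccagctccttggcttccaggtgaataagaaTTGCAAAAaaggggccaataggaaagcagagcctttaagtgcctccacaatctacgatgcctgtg
C3: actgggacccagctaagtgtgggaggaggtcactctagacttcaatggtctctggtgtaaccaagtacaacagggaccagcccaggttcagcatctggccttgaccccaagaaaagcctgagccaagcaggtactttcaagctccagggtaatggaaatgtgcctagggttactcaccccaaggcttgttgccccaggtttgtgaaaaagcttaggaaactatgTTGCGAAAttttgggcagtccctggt
C4b: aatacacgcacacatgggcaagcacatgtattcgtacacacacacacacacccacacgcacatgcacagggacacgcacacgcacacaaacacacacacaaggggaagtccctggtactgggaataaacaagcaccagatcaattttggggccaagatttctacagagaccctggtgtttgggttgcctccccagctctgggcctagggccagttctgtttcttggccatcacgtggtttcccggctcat
Serping1: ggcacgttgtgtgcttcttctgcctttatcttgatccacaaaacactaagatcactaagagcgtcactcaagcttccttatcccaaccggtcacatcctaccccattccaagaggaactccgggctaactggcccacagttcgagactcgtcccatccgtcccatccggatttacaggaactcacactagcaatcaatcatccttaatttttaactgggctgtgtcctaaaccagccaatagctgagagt
They span chr4:136626162-136626411 (C1qa), chr4:136620377-136620626 (C1qc), chr6:124489114-124489363 (C1ra), chr17:57535156-57535405 (C3), chr17:34962913-34963162 (C4b) and chr2:84605789-84606038 (Serping1), each read 5′ to 3′ on the gene's strand in GRCm39. The start used for Serping1 was that of its main transcript, Serping1-201.

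The motifs were the STAT site GAS (TTCNNNGAA), the interferon element ISRE, an NF-kB site, a PU.1 site (GAGGAAGT) and a C/EBP site (TTGCNNAA), where N is any base. C1qa held a GAS match 21 to 13 bases before its start, and 6.51% of 14183 promoters held one in the same length. C1qc held a PU.1 match, on the reverse strand, 44 to 37 bases before its start, against 2.04% of promoters. C/EBP matches stood 65 to 58 bases before the start of C1ra and 26 to 19 bases before that of C3, and 8.1% of promoters held one. No member held an ISRE match (3.11% of promoters) or an NF-kB match (0.367%), and C1qb, C2, C4b, Cfb and Serping1 held none of the 5 motifs in this window. A match describes the letters only. Looser forms of these sites were not searched for, so the lack of a match does not show that a site is absent.

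The libraries held 25746096 to 38435850 assigned reads. The labels call the cells neurons, but markers of cerebellar neurons summed to 123 to 183 TPM (a level scaled by transcript length and library size) against 3713 to 6327 for microglia, 3884 to 5378 for astrocytes and 5605 to 9287 for the oligodendrocyte lineage. Of 5 markers listed for macrophages other than microglia and for monocytes, Ccr2, Ly6c2, Lyve1 and Cd163 had too few reads to be tested, while Mrc1 was expressed at 18.8 to 48.5 TPM, and the 5 markers of T and NK cells summed to 0.702 to 1.65 TPM. Nothing in the labels says whether replicates came from separate animals, so p-values measure the spread between these cultures, which may be technical. Replicate 2 at the high dose stood apart: without it, 2932 in place of 1500 genes passed at the high dose. In bulk RNA, fewer cells of a type and less RNA per cell cannot be told apart.

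C1q genes were by far the most abundant members. C1qa, C1qb and C1qc together held 85.2 to 93.4% of the members' summed TPM, and the mean level of C1qa in unstimulated cultures was 2452 ± 344 TPM (SD, n = 5). C1qc followed at 1674 ± 244 and C1qb at 1556 ± 243, whose spreads overlapped. C3, the central component, had 424 ± 50.6 TPM, which was the highest level outside C1q. Serping1 (73.6 ± 5.52) and C4b (60.1 ± 5.30) came next, and their unstimulated ranges did not overlap. The C1r protease gene C1ra (12.9 ± 0.645) and C2 (10.04 ± 1.04) were low, and Cfb was at 0.279 ± 0.148. The same order held in both IL-12 groups.

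**Figure D1:**
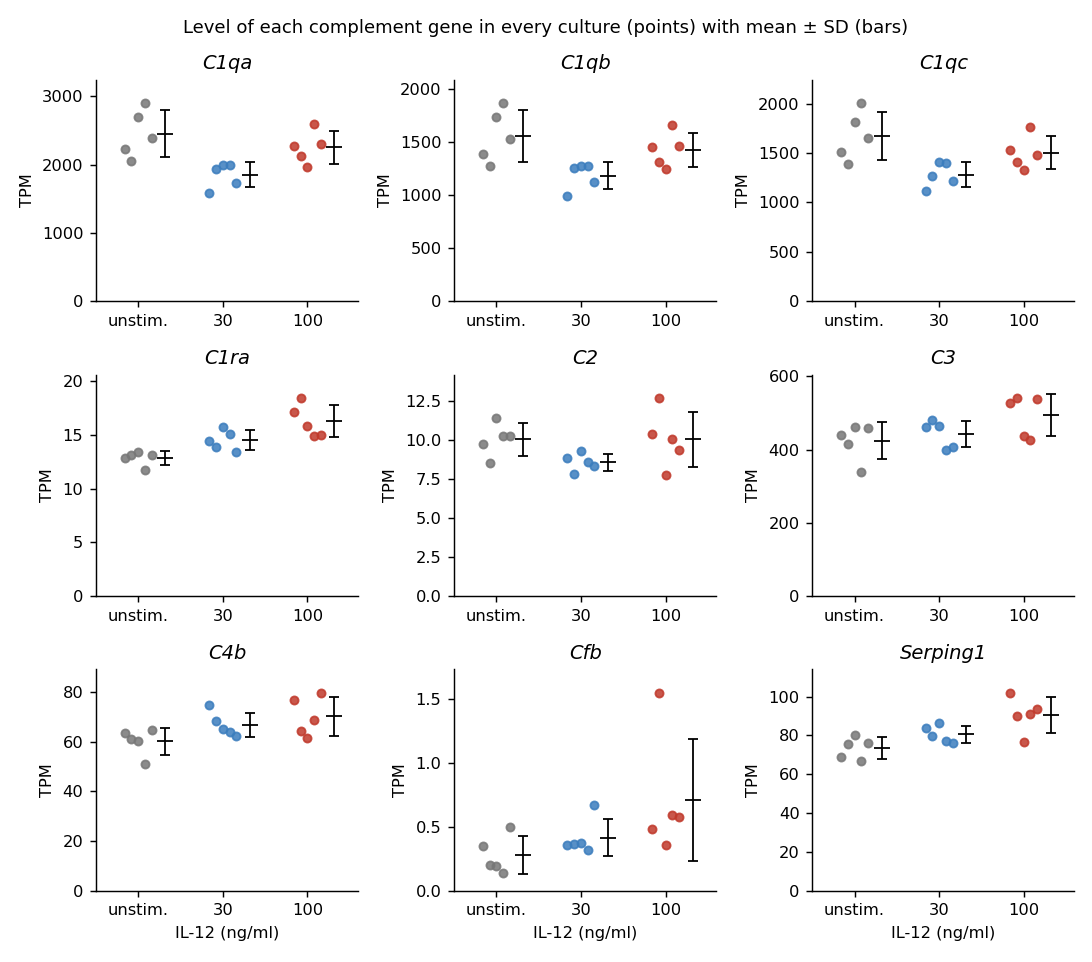
Level (TPM, axes from 0) of each of the 9 members in every culture by IL-12 dose (unstimulated, 30 and 100 ng/ml, 5 cultures each), with bars for mean ± SD. C1qa at the low dose sits between 1581 and 2000 TPM, below all unstimulated cultures, and C1ra at the high dose sits between 14.9 and 18.4 TPM, above all of them.

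C1ra and Serping1 rose at the high dose, and the 3 C1q genes fell at the low dose. Of the 8 members with enough reads to test (Cfb had too few), 2 passed at the high dose (FDR under 0.05 in edgeR's quasi-likelihood test), both higher, against 9.77% of all genes tested (5.83% higher). At the low dose 3 of 8 passed, all lower, against 7.87% (3.71% lower). Groups without overlap in normalised counts were C1ra alone at the high dose, higher (4.34% of all genes were so), and C1qa alone at the low dose, lower (3.46%). The median log2 fold change of the 8 members was 0.11 at the high dose and -0.13 at the low dose, and over all genes it was near 0 in both. Both comparisons used the same unstimulated cultures, so they are not independent of each other.

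**Figure D2:**
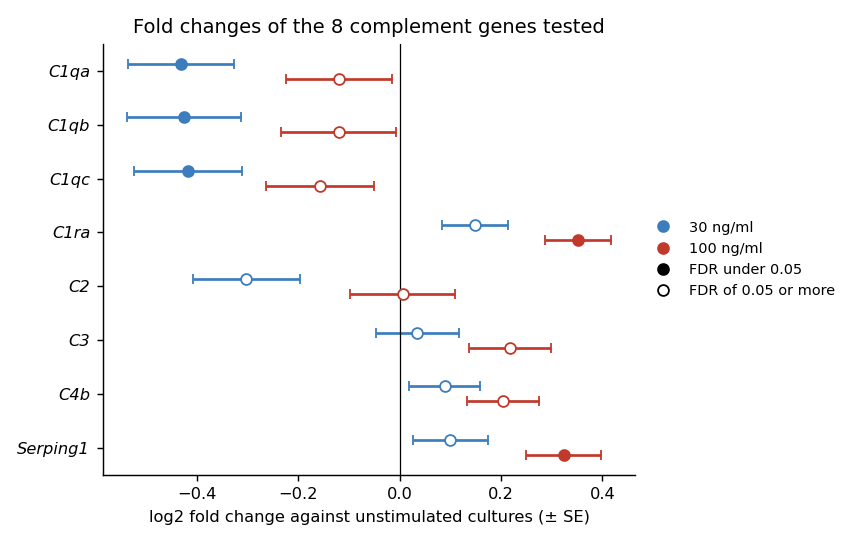
Log2 fold change (± SE) against the 5 unstimulated cultures of the 8 members tested, at 30 ng/ml and 100 ng/ml (5 cultures each), filled where the FDR was under 0.05. C1qa, C1qb and C1qc lie near -0.4 at the low dose, and C1ra (0.35) and Serping1 (0.32) pass at the high dose.

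C1q fell at the low dose. C1qa, the A chain of C1q, measured 2227, 2051, 2698, 2896 and 2388 TPM in the unstimulated cultures, 1581, 1932, 2000, 1999 and 1735 at the low dose, and 2268, 2126, 1959, 2600 and 2307 at the high dose. All 5 cultures at the low dose lay below the lowest unstimulated culture, whereas the high-dose cultures overlapped the unstimulated ones. On the log2 scale C1qa fell by 0.43 at the low dose (SE 0.10, FDR 0.0173 by edgeR's quasi-likelihood test, adjusted over 15360 genes). At the high dose its log2 fold change was -0.12 (SE 0.10, FDR 0.508).

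C1qb, the B chain, had 1382, 1274, 1733, 1862 and 1527 TPM without stimulation, 986, 1253, 1272, 1276 and 1122 at the low dose, and 1451, 1311, 1249, 1657 and 1458 at the high dose. C1qc, the C chain, had 1510, 1389, 1816, 2004 and 1650, then 1118, 1271, 1415, 1398 and 1213, then 1530, 1409, 1331, 1768 and 1477 TPM. For both genes the groups at the low dose and without stimulation met at their edges. Both fell at the low dose, C1qb by 0.42 (SE 0.11, FDR 0.0272) and C1qc by 0.42 (SE 0.11, FDR 0.0225). At the high dose the log2 fold changes were -0.12 for C1qb (FDR 0.542) and -0.16 for C1qc (FDR 0.382). These 3 calls at the low dose depended on single cultures. None of the 3 passed without replicate 1 at the low dose, or without unstimulated replicate 3 or 4 (FDR 0.0512 to 0.0811, log2 fold changes -0.38 to -0.34), and without replicate 5 at the low dose only C1qa did.

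The C1q genes kept nearly fixed proportions to each other. The TPM ratio of C1qa to C1qb lay between 1.54 and 1.62 over all 15 cultures, that of C1qa to C1qc between 1.41 and 1.56, and that of C1qc to C1qb between 1.01 and 1.13. Group means of the first ratio were 1.58, 1.57 and 1.58 at rising dose. So the fall at the low dose was shared by all 3 chains in like measure. C1qa and C1qb each have 1 measured transcript, and C1qc-201 held 99.8% of the C1qc level.

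Microglia markers other than complement moved with C1q. At the low dose, 7 of 13 tested markers fell and none rose, with a median log2 fold change of -0.42, and at the high dose 1 fell (Gpr34) with a median of -0.13. Those that fell at the low dose included Cx3cr1, Trem2, Tyrobp, Gpr34, Ctss and Laptm5. The 14 markers measured summed to 4559 to 6327 TPM without stimulation, 3713 to 4556 at the low dose and 4267 to 5561 at the high dose. C1qa lay in the middle of them at the low dose, with 6 markers more negative and 7 less. As a share of that sum, C1qa was 44.1 ± 1.27% without stimulation, 44.5 ± 1.47% at the low dose and 45.9 ± 1.45% at the high dose (SD, n = 5 each), differences of about the spread. Astrocyte markers moved the other way at the low dose: 3 of 10 rose (Aldh1l1, Slc1a3 and Aldoc) and none fell, with a median of 0.15, and they summed to 4609 to 5378 TPM against 3884 to 4357 without stimulation. A low-dose fall was not particular to microglia. Of 11 tested markers of cerebellar neurons, 2 fell and none rose at the low dose, with a median of -0.49. At the high dose 1 of them fell, with a median of -0.38. For the oligodendrocyte lineage 1 of 10 markers fell at the low dose (median -0.08) and 3 at the high dose (median -0.15). Mrc1 had log2 fold changes of -0.31 at the low dose (FDR 0.386) and -0.33 at the high dose (FDR 0.319). The part of these cells in the C1q values was not tested.

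**Figure D3:**
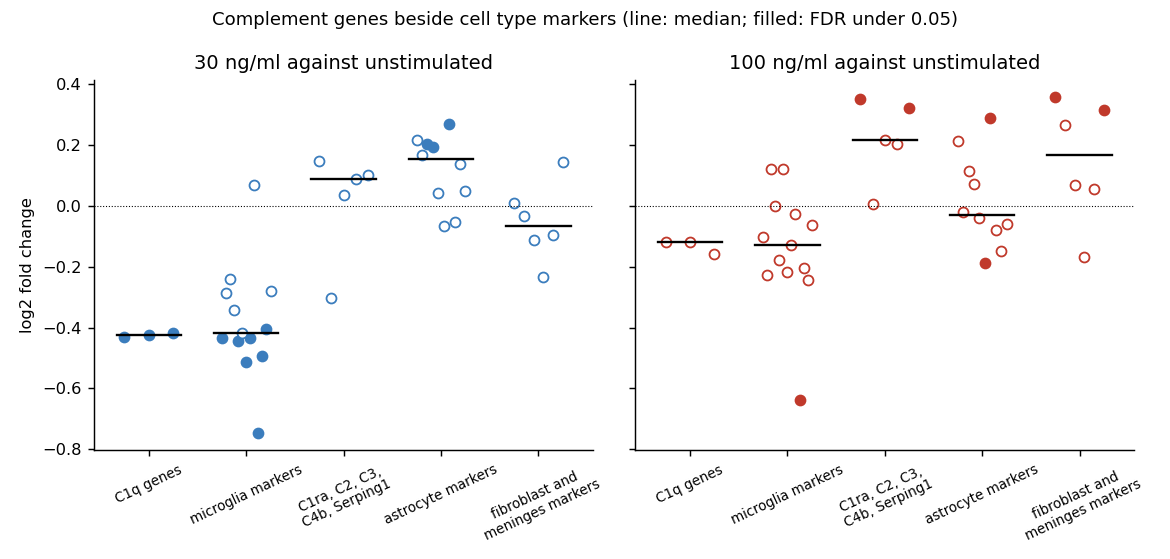
Log2 fold change against unstimulated cultures at 30 ng/ml (left) and 100 ng/ml (right) of the C1q genes, the other tested members and markers of microglia, astrocytes, and fibroblasts and meninges. Each point is a gene, filled where its FDR was under 0.05, and lines are medians; the C1q genes lie close to the microglia median at both doses (-0.42 and -0.13).

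The C1r protease gene rose at the high dose. C1ra had 12.8, 13.2, 13.4, 11.8 and 13.1 TPM without stimulation, 14.5, 13.9, 15.7, 15.1 and 13.4 at the low dose, and 17.2, 18.4, 15.9, 14.9 and 15.03 at the high dose. Every high-dose culture exceeded every unstimulated one, while the low-dose values met the unstimulated ones at 13.4 TPM and overlapped them in normalised counts. The rise was 0.35 on the log2 scale at the high dose (SE 0.06, FDR 0.00246), and 0.32 (FDR 0.00383) without replicate 2. At the low dose the log2 fold change was 0.15 (SE 0.07, FDR 0.181). C1rb, the near-identical copy of C1ra, had at most 4 reads, and adding it changed no call. C1s1, the partner protease, had log2 fold changes of 0.25 at the high dose (FDR 0.0923) and 0.07 at the low dose (FDR 0.696).

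C2, the protease that joins C4b to cleave C3, had its lowest mean at the low dose, as C1q did. Its TPM were 9.72, 8.56, 11.4, 10.3 and 10.2 without stimulation, 8.83, 7.81, 9.30, 8.62 and 8.37 at the low dose, and 10.4, 12.7, 7.77, 10.1 and 9.34 at the high dose, and all groups overlapped. The log2 fold change was -0.30 at the low dose (SE 0.10, FDR 0.0850) and 0.01 at the high dose (SE 0.10, FDR 0.979). Across the 15 cultures C1qa had a Pearson r of 0.83 with C2 and of -0.08 with C1ra, given as a description. C2-201 held 64.4 to 91.4% of the C2 level.

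C3 and C4b, whose products are cleaved and deposited on targets, did not pass at either dose. C3 had 440, 416, 463, 340 and 460 TPM without stimulation, 461, 480, 465, 398 and 408 at the low dose, and 529, 540, 437, 427 and 539 at the high dose. The 3 highest of these were at the high dose, above every other culture, while the other two lay within the unstimulated range. Its log2 fold change was 0.22 at the high dose (SE 0.08, FDR 0.0984) and 0.04 at the low dose (SE 0.08, FDR 0.847).

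C4b had 63.3, 60.9, 60.3, 51.1 and 64.7 TPM without stimulation, 74.5, 68.2, 65.2, 63.9 and 62.3 at the low dose, and 76.8, 64.4, 61.5, 68.6 and 79.4 at the high dose. Unstimulated replicate 4 was the lowest of all 15 for C4b, as it was for C3, C1ra and Serping1, and the highest for the C1q genes. The C4b log2 fold change was 0.20 at the high dose (SE 0.07, FDR 0.0730) and 0.09 at the low dose (SE 0.07, FDR 0.497). It passed at the high dose with a likelihood-ratio test (FDR 0.0463) and without replicate 2 or 3 of that group (FDR 0.0267 and 0.0477). C4a, a close copy of C4b, had log2 fold changes of -0.44 at the high dose (FDR 0.414) and 0.02 at the low dose (FDR 0.981), and reads may be shared between the copies. The TPM ratio of C3 to C4b stayed between 6.18 and 8.39.

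Serping1, the inhibitor of C1r and C1s, rose at the high dose. It had 68.9, 75.6, 80.4, 67.0 and 76.1 TPM without stimulation, 83.7, 79.7, 86.5, 77.0 and 76.0 at the low dose, and 101.8, 90.2, 76.5, 91.1 and 93.4 at the high dose. In 4 of 5 cultures at the high dose it exceeded every unstimulated culture. The rise was 0.32 on the log2 scale (SE 0.07, FDR 0.0107), and 0.34 (FDR 0.00762) without replicate 2. At the low dose the log2 fold change was 0.10 (SE 0.07, FDR 0.461). Beside it and C1ra, 2 of 6 fibroblast and meninges markers rose at the high dose, Col1a1 (0.36) and Pdgfrb (0.31), and the list summed to 518 to 666 TPM against 418 to 560 without stimulation. Of 10 astrocyte markers Aldoc rose (0.29) and Gja1 fell by 0.19, and these summed to 4315 to 4775 TPM against 3884 to 4357. The part of these cells in the rise was not tested.

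Cfb, which encodes the protease of the alternative route, had too few reads to be tested with the others: 21, 9, 9, 6 and 18 without stimulation, 15, 13, 15, 15 and 27 at the low dose, and 25, 43, 15, 17 and 29 at the high dose. Without a filter on low counts its log2 fold change was 1.02 at the high dose (SE 0.34, FDR 0.0971) and 0.49 at the low dose (FDR 0.60). Replicate 2 at the high dose decided much of the first value, which was 0.68 (FDR 0.232) without it. The low-dose value was 0.26 (FDR 0.819) without replicate 5 of that group and stayed between that and 0.71 without any other single culture.

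Between the doses themselves, no member passed. All 8 log2 fold changes of the high against the low dose were above 0, with a median of 0.24 and FDR values from 0.202 (C1ra) to 0.517 (C4b), and 0.579% of all genes passed. At an unadjusted p under 0.05, 7 of 8 members were counted, against 12.7% of all genes, and DESeq2 called 0. For C1qa the value was 0.31 (SE 0.10, FDR 0.225). A different C1q response at the 2 doses was therefore not shown at this number of cultures.

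The contrast between C1q and C3, C4b and Serping1 was tested as a ratio within each culture, which does not depend on library scaling. The mean log2 TPM ratio of C4b to C1qa was -5.34 ± 0.31 without stimulation, -4.79 ± 0.22 at the low dose and -5.01 ± 0.15 at the high dose (SD, n = 5 each). That of Serping1 to C1qa was -5.05 ± 0.24, -4.52 ± 0.17 and -4.64 ± 0.13, and that of C3 to C1qa -2.53 ± 0.33, -2.06 ± 0.20 and -2.19 ± 0.24. Each ratio was thus higher in both IL-12 groups on average, and unstimulated replicate 4 was the lowest for all 3.

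Over the 27 ratio tests (9 gene pairs, 3 comparisons), 7 of 9 pairs passed at the low dose and 3 of 9 at the high dose. Since the C1q genes kept nearly fixed proportions, ratios of the same gene to each of them are near repeats and not separate results. At the low dose the 6 ratios of C4b and Serping1 to C1q genes rose by 0.51 to 0.56 without overlap between groups (two-sided exact permutation test, p = 0.00794, the smallest that 5 against 5 allows, adjusted p = 0.0357). The ratio of C3 to C1qa rose by 0.47 (exact permutation p = 0.0159, adjusted p = 0.0429). The ratios of C3 to C1qb and to C1qc did not pass after adjustment, with differences of 0.46 and 0.44 (exact permutation test, adjusted p = 0.0536 for both). In normalised counts C3, C4b and Serping1 had log2 fold changes of 0.04 to 0.10 at the low dose. In TPM, the scale of the ratios, their means went from 423.8 to 442.5, 60.07 to 66.83 and 73.57 to 80.55. The mean of C1qa went from 2452 to 1849 TPM, so most of each difference came from the C1q term.

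At the high dose the ratios of Serping1 to C1qa, C1qb and C1qc rose by 0.42, 0.42 and 0.45 (exact permutation p = 0.0159, adjusted p = 0.0429 for each). Those of C3 and C4b differed by 0.34 to 0.37 and did not pass (exact permutation test, adjusted p from 0.0989 to 0.158). Between the doses none passed in the exact permutation test (differences -0.22 to -0.06, lowest adjusted p = 0.143, and 0 of 9 at an unadjusted p under 0.05). As single cultures were left out, the number of ratios called at the low dose ran from 0 (without replicate 1 of that group or unstimulated replicate 4) to 9. At the high dose it ran from 0 to 7, and was 0 without unstimulated replicate 1, 3, 4 or 5 or high-dose replicate 1, 2, 3 or 5. The low-dose call of C3 to C1qa was lost without unstimulated replicate 1, 3, 4 or 5 or low-dose replicate 1, 2, 3 or 5. The 18 differences from unstimulated cultures stayed above 0 throughout (0.20 to 0.63). With 5 cultures against 4 the smallest exact permutation p is 0.0159, so a lost call there does not by itself show a smaller difference. In the low-dose removals that left 0 calls, the differences to C1qa were smaller. For C4b, Serping1 and C3 they were 0.56, 0.53 and 0.47 with all cultures. They were 0.46, 0.46 and 0.40 without low-dose replicate 1, and 0.44, 0.44 and 0.33 without unstimulated replicate 4. At the low dose the ratios of C4b and Serping1 stayed between 0.41 and 0.63 and that of C3 to C1qa between 0.33 and 0.54, and at the high dose those of Serping1 between 0.31 and 0.52. At the low dose 3 of 10 astrocyte markers rose (median 0.15) and 7 of 13 microglia markers fell (median -0.42). At the high dose the medians were -0.03 for astrocyte and -0.13 for microglia markers. The part of these cells in the ratios was not tested.

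**Figure D4:**
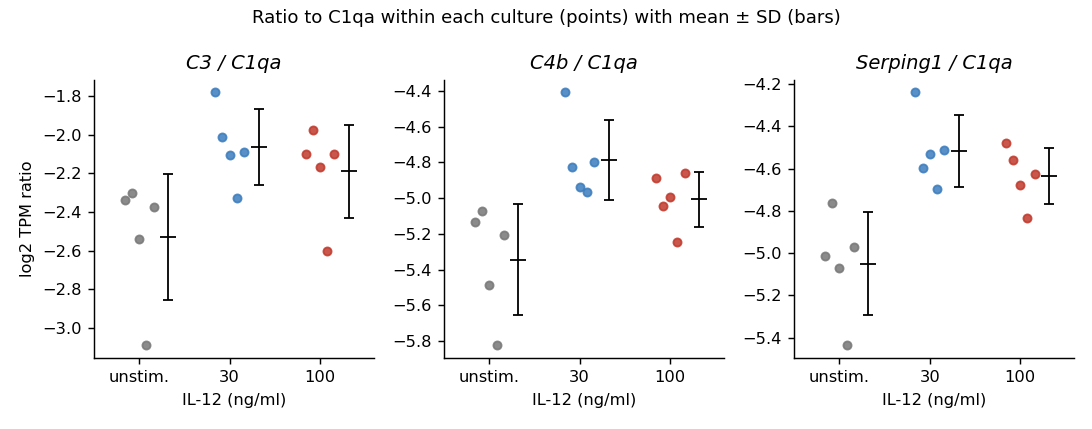
Log2 TPM ratio of C3, C4b and Serping1 to C1qa in each culture by IL-12 dose (5 cultures per group), with bars for mean ± SD; the axes do not start at 0. All 5 cultures at the low dose lie above all unstimulated ones for C4b and Serping1.

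Over the 15 cultures the members formed groups of like pattern, measured by Pearson r of log2 normalised counts among 15360 tested genes and given as a description, since cultures share groups and library scaling. The genes most like C1qa were C1qb (0.997), C1qc (0.989) and Tyrobp (0.986), a microglial signalling adaptor. C1qa had an r of -0.04 with C3, -0.06 with C4b and 0.14 with Serping1.

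C3, C4b and Serping1 resembled each other more, with r of 0.77 (C3 and C4b), 0.78 (C3 and Serping1) and 0.84 (C4b and Serping1). The genes most like C3 were Lcn2 (0.86), which encodes the iron-carrier binding protein lipocalin 2, Lgi2 (0.85) and Fndc5 (0.84). Those most like C4b were Cabcoco1 (0.90), the haptoglobin gene Hp (0.89) and Inf2 (0.87). Those most like Serping1 were Lcn2 (0.89), Tmem176a (0.88) and the parathyroid hormone receptor gene Pth1r (0.87).

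Most of the other complement genes did not pass. Of 47 genes listed for the pathway, the 9 members included, 32 were tested, of which 2 rose and none fell at the high dose, and none rose and 9 fell at the low dose. Over all genes tested, 5.83% rose at the high dose and 3.71% fell at the low dose, so the 2 of 32 that rose, C1ra and Serping1, are a share near that of all genes. Over the 32 genes the median log2 fold change was -0.09 at both doses.

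The other genes that fell at the low dose were mostly receptors. The anaphylatoxin receptor C3ar1 fell by 0.51 (SE 0.10, FDR 0.00406) and C5ar2 by 0.39 (SE 0.11, FDR 0.0354). Itgam and Itgb2, the chains of complement receptor 3, fell by 0.36 (FDR 0.0216) and 0.33 (FDR 0.0185). The regulator Cd55, which speeds decay of the C3-cleaving enzyme, fell by 0.24 (FDR 0.0383). At the high dose these 5 genes had log2 fold changes of -0.25 to -0.11 and did not pass, the lowest being C5ar2 and the highest Itgb2. The number of calls in the list at the low dose fell to between 1 and 5 without unstimulated replicate 3, 4 or 5 or without replicate 1 or 5 at the low dose.

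C5ar1, the main C5a receptor, had log2 fold changes of -0.10 at the low dose (FDR 0.497) and -0.09 at the high dose (FDR 0.478). The regulator clusterin, Clu, had 0.07 (FDR 0.543) and 0.04 (FDR 0.741). Between the doses no gene of the list passed in edgeR or DESeq2. An unadjusted p under 0.05 in edgeR was found for 11 of 32, 7 of them members, against 12.7% of all genes. Of the 15 genes not tested, 2 (Fcnb and Cfd) had no read in any culture and 8 had at most 5 reads in every culture, among them the terminal components C6, C7, C8a, C8b and C9.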

How the data were processed

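Single-end stranded mRNA libraries were sequenced from 15 cultures in 3 groups. The authors deposited, per culture, estimated counts (expected counts) and TPM for 121798 transcripts; the program that made them is not given in the sources used here, and neither is its use of strand. The submitters' processing notes name FastQC 0.10.0, STAR 2.7.8a, featureCounts and GRCm39. Estimated counts and TPM were summed by gene through GENCODE (120537 transcripts matched, 35142 genes), and counts were rounded. Unmatched transcripts held 0.677 to 0.712% of reads and were left out. Genes with at least 1 CPM (a count scaled by library size) in at least 2 cultures entered a quasi-likelihood fit of the 3 groups (edgeR 4.0.16, R 4.3.3, TMM factors), with Benjamini-Hochberg adjustment over all genes tested and calls at an FDR under 0.05, after tests on simulated data. Groups without overlap were counted on TMM-scaled CPM, and correlations used log2 CPM with a prior count of 2. Log2 TPM ratios were compared by two-sided exact permutation tests (NumPy 2.4.6), adjusted over 27 tests. Alternatives used DESeq2 1.42.0, limma 3.58.1, other scalings, filters and samples, and for Cfb a fit with no filter, chosen after seeing the data, with each culture left out in turn. Replicates of a group differed by more than counting noise (chi-square per degree of freedom at least 5.27), so none was merged. All 9 members are named. So are the other listed complement genes with an FDR under 0.05 at either dose, C4a, C1rb, C1s1, C3ar1, C5ar1, Itgam and Clu, and the 3 genes most correlated with each of C1qa, C3, C4b and Serping1. Some listed genes are counted but not reported here by name. Members, lists and tests were chosen with earlier results of these data known. Promoter sequences were read from the GRCm39 genome at GENCODE starts.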

Additional observations from a re-analysis of the deposited data

Results flagged for a closer look

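Of 27 groups of 5 cultures checked by Dixon's test on TPM, 2 held a culture far from the other 4, and chance flags about 1 in 20 groups. Both concern Cfb, the member with the fewest reads. Replicate 5 at 30 ng/ml had 0.669 TPM against 0.322 to 0.372 in the others (gap over range 0.854, critical value 0.71). Replicate 2 at 100 ng/ml had 1.55 TPM against 0.359 to 0.590 (gap over range 0.805). The reads behind these values were 27 and 43.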

How the results depend on the processing

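The rises of C1ra and Serping1 at 100 ng/ml passed in all 25 alternatives (log2 fold changes 0.32 to 0.38 and 0.26 to 0.38). At 30 ng/ml the C1q genes passed in every alternative that kept all cultures. With single cultures left out, the number of members called there ran from 0 to 4 (3 with all cultures), that of the 47 listed complement genes from 1 to 10 (9 with all cultures), and the number of ratios called from 0 to 9 at 30 ng/ml and from 0 to 7 at 100 ng/ml. For C2 at 100 ng/ml the log2 fold change turned to -0.0095 with limma on log2(TPM + 1). It ran from -0.058 to 0.081 as single cultures were left out, and was below 0 without unstimulated replicate 1 or 2 or replicate 1, 2 or 4 at 100 ng/ml. That of C3 at 30 ng/ml ran from -0.0268 (without unstimulated replicate 4) to 0.0855. Between the doses the log2 ratio of Serping1 to C1qc ran from -0.1103 to 0.0003 (without replicate 1 at 30 ng/ml) and that of C3 to C1qc from -0.1409 to 0.0394 (without replicate 4 at 100 ng/ml). The cause was not tested. C2 at 30 ng/ml passed with DESeq2 (FDR 0.0496) and without unstimulated replicate 2 (FDR 0.0303). Library size alone moved the share of higher calls over all genes at 30 ng/ml from 52.9 to 63.1%, limma to 65.1%. At 100 ng/ml a fit of only the groups compared called 946 genes and limma 828, against 1500.

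The replicate numbers were not taken to pair the cultures, since 4 of 15 same-number correlations were over 0.1 and 5 of 15 cultures correlated best with their own number. With a replicate block the C1q calls at 30 ng/ml (FDR 0.00877 to 0.0184) and those of C1ra (0.00527) and Serping1 (0.0279) were kept, and 1169 and 1081 genes passed at 100 and 30 ng/ml. Permuted within the replicate block, 0 ratios passed at either dose, and the smallest exact permutation p that design allows is 0.0625. The depth, 25746096 reads or more, gave Cfb 6 to 43 reads and did not allow a test of it with the filter.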
